A study of Mus musculus with 2 samples.

Results

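The glycolysis and hypoxia response genes are 31 genes that were taken by symbol from the 32285 gene rows of the deposited matrices: glucose and lactate transporters, the enzymes from hexokinase to pyruvate kinase, both lactate dehydrogenases, a pyruvate dehydrogenase kinase, a group of hypoxia targets, and Txnip. They occupied 32 rows, since Aldoa is listed under 2 gene identifiers, whose counts were added (11957 and 8 UMIs in the wild-type library). The study profiled single cells of the corticoseptal boundary, the midline tissue between cortex and septum, from mouse embryos at E16.5, with the 10x Genomics 3' method. Each genotype is a single library: wild type (WT), and the Tcf4 conditional knockout (cKO) of genotype Tcf4f/f;Emx1Cre. Emx1 drives Cre in progenitors of the dorsal telencephalon and their offspring, so most GABAergic neurons, vascular cells and microglia of the cKO library lie outside the targeted lineage. How many embryos went into each library is not given in the labels.

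With 1 library per genotype there is no replicate and no test between genotypes, and no p-value was computed. Levels are UMIs (unique molecular identifiers, the tags that count captured transcripts) summed over the cells of a class, divided by all UMIs of that class and given on the usual CPM scale. Brackets hold 95% intervals, exact Poisson for a level, exact conditional binomial for a ratio and Clopper-Pearson for a share, and they cover counting error only. A ratio is cKO over WT. Because 3' UMIs are counted once per transcript, CPM do not scale with gene length. How well each gene is captured was not checked, so levels of different genes can be set side by side only roughly. Gapdh, Ldha, Tpi1, Pgk1, Eno1 and Pgam1 have near-identical processed copies in the mouse genome. How reads shared with those copies were counted was not checked, so their absolute levels are uncertain. The same limit holds for isozyme shares that use Ldha or Eno1.

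The WT library held 116998498 UMIs and the cKO library 121321247. The cells kept numbered 8625 in WT and 10102 in cKO, and their median depths were 9656 and 8143.5 UMIs. The 2 libraries shared 23 cell barcodes. Clusters were named from marker genes, with the genes studied here left out of the clustering. The 5 large classes were astroglia (radial glia and astrocyte precursors, 1572 WT and 1517 cKO cells), cycling progenitors (1085 and 1197), intermediate progenitors (778 and 1108), glutamatergic neurons (1775 and 2737) and GABAergic neurons (2312 and 2632). Tcf4 had ratios of 0.841 in astroglia, 0.723 in cycling progenitors, 0.627 in intermediate progenitors, 0.682 in glutamatergic neurons and 0.880 in GABAergic neurons. Tags from the 3' end can lie outside the deleted part of a gene, so these levels do not show in what share of cells Tcf4 was deleted. The classes were not split by lineage, and the astroglia include a septal cluster. Cycling progenitors held GABAergic neuron markers that summed to 931 CPM in WT and 880 in cKO, beside 148 and 181 in astroglia. How much of each class lies outside the targeted lineage was not determined.

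Glycolysis splits glucose into pyruvate. Pyruvate either enters mitochondria, a step that pyruvate dehydrogenase kinases hold back, or is reduced to lactate by lactate dehydrogenase and leaves through monocarboxylate transporters. Many of these genes are targets of HIF1, a transcription factor whose alpha subunit is marked for breakdown by the oxygen-dependent prolyl hydroxylases Egln1 and Egln3. Txnip works the other way: it is a glucose-responsive arrestin family protein that restrains glucose uptake, and its transcription is driven by Mlxip and Mlxipl with their partner Mlx. In the developing cortex, radial glia are known for high glycolysis and neurons for a turn to oxidative metabolism.

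The promoters of 3 members are shown for 2 sequence elements known from glucose and oxygen response, 1 of them shared by many members and the other found in Txnip. They are the 250 bases upstream of the start site in RefSeq (GRCm38.p6), all on the plus strand. In the Txnip promoter (chr3:96557707-96557956) capitals mark a match to the carbohydrate response element, searched on both strands as CACGNG, then any 5 bases, then CACGNG again. It lies at -85 to -69 from the start site. RefSeq gives 2 starts for Ldha. The bases just past the upstream start were found in the first part of 0 GENCODE transcripts of Ldha. Those just past the downstream start were found in the first part of 1. Where these transcripts begin was not checked. In the promoters of Pgk1 (chrX:106186850-106187099), of the upstream Ldha start (chr7:46845554-46845803) and of the downstream Ldha start (chr7:46846832-46847081), capitals mark the core of the hypoxia response element, searched as ACGTG or GCGTG on both strands, with overlapping matches run together.
Txnip: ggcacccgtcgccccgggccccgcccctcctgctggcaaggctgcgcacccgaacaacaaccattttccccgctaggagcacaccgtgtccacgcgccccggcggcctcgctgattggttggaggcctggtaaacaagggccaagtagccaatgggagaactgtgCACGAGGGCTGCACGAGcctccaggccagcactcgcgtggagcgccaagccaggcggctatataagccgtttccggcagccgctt
Pgk1: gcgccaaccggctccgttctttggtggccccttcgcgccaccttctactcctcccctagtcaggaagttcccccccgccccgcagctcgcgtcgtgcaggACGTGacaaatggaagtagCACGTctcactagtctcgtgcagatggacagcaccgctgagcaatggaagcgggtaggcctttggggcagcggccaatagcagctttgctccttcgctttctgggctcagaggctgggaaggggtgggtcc
Ldha, upstream start: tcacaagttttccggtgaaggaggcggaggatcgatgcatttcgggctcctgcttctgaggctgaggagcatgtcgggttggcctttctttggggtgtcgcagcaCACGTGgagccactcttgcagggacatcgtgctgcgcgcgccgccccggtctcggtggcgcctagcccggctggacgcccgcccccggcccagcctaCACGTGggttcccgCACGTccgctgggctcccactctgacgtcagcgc
Ldha, downstream start: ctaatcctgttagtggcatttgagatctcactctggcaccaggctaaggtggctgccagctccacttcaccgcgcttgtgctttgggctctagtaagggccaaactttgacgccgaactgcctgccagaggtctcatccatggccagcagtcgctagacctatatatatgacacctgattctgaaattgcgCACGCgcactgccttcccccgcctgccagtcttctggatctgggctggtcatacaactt
Counting overlaps, the upstream Ldha promoter held 5 cores, the downstream one 1 and the Pgk1 promoter 2.
The carbohydrate response element was found in 15 of 32851 promoters of this length (0.0457%). Among the members it was found only in the Txnip promoter, of 30 members with a promoter in the table. The hypoxia core was found in 38.6% of all promoters and in 33 of 42 promoters of members (78.6%), covering 27 of 30 members. It was not found in the promoters of Gpi1, Tpi1 and Eno2. The members' promoters were also richer in G and C, with a median of 62.8% against 52.4% for all promoters, and both cores hold CG, so the share is a description of sequence and not of binding.

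The first question was in which cells the pathway was strong. Of the 5 large classes, astroglia were highest in both libraries and neurons lowest. The 31 genes together made up 0.462% of all UMIs of WT astroglia, 0.394% in cycling progenitors, 0.308% in intermediate progenitors, 0.268% in glutamatergic neurons and 0.242% in GABAergic neurons. In the cKO library the same classes held 0.450%, 0.392%, 0.306%, 0.263% and 0.251%. The quartiles over single WT cells were 0.361% and 0.536% in astroglia and 0.190% and 0.284% in GABAergic neurons, so the middle cells of these classes did not overlap. The 14 enzymes from hexokinase to pyruvate kinase summed to 3232 CPM in WT astroglia and 3214 CPM in cKO astroglia, and to 1628 and 1697 CPM in GABAergic neurons.

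**Figure D1:**
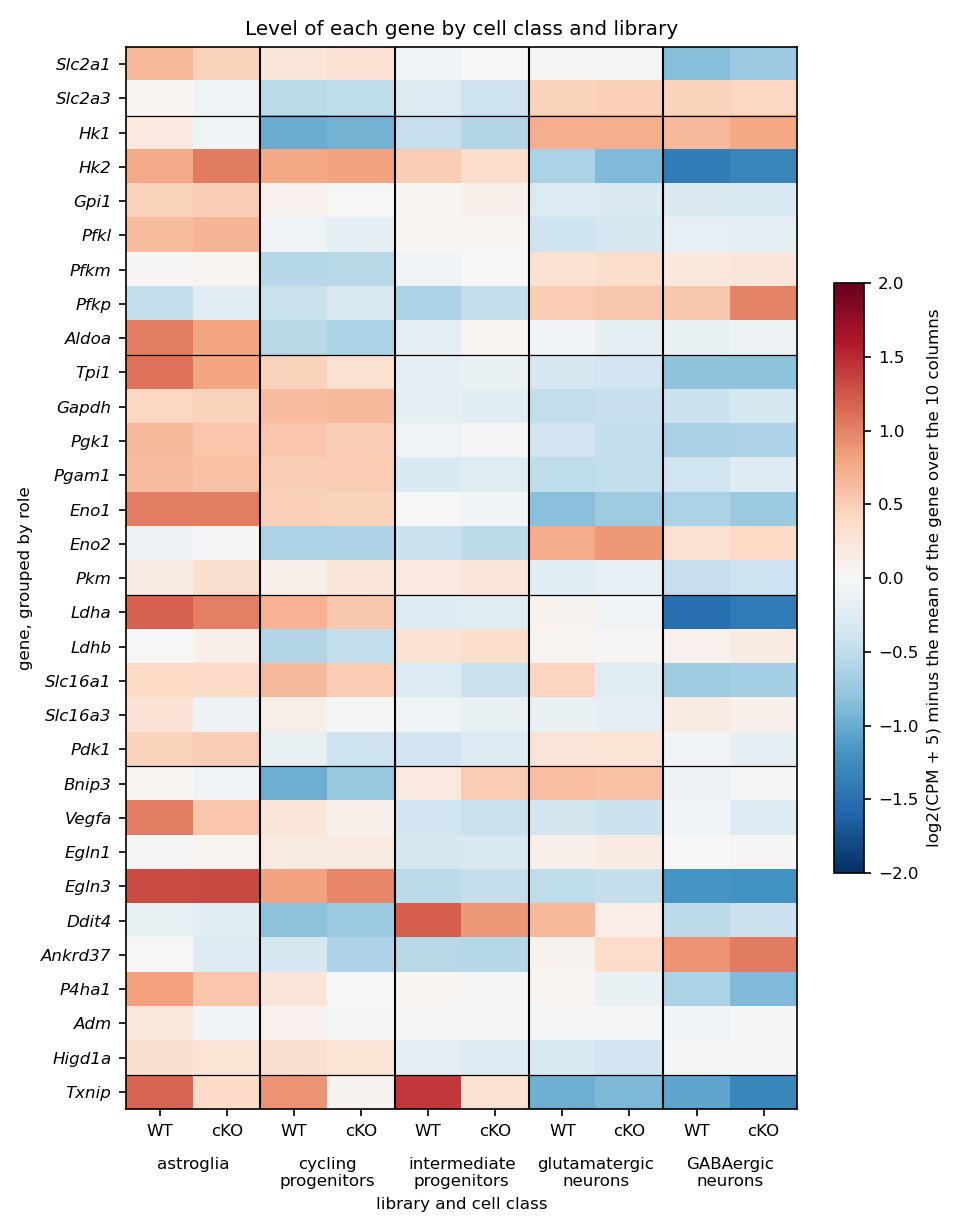
Level of each of the 31 genes in the 5 large classes and both libraries. Colour is log2(CPM + 5) minus the mean of that gene over the 10 columns, so that red is high and blue low for that gene, and black lines part the roles. Most rows are red in astroglia and blue in neurons, a smaller set (Slc2a3, Hk1, Pfkm, Pfkp, Eno2) runs the other way, and the WT and cKO columns of a class are close in most rows and far apart for Txnip in astroglia and progenitors.

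The steps between triose phosphate and pyruvate carried most of the transcripts and most of the gradient. Gapdh, which oxidises glyceraldehyde phosphate, was the most abundant member, at 1105 CPM in WT astroglia, 1277 in cycling progenitors, 723 in intermediate progenitors, 586 in glutamatergic neurons and 616 in GABAergic neurons. Eno1, the enolase of most tissues, was at 310, 210, 151, 81.6 and 95.5 CPM in the same order. Both were thus lowest in the neurons, but Gapdh peaked in cycling progenitors and Eno1 in astroglia. Tpi1, triose phosphate isomerase, went from 286 CPM in WT astroglia to 73.1 in GABAergic neurons. Pgk1, which makes the first ATP of the pathway, went from 264 to 104. Pgam1, the phosphoglycerate mutase, went from 371 in WT astroglia to 168 in glutamatergic neurons. Pkm, pyruvate kinase, varied least of these, from 410 CPM in WT intermediate progenitors to 258 in GABAergic neurons. In the cKO library Tpi1, Pgk1 and Pgam1 were highest and lowest in the same classes as in WT, while Pkm was highest in astroglia (447 CPM).

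Upstream of aldolase the levels were lower. Aldoa, aldolase A, was at 223 CPM in WT astroglia and 188 in cKO astroglia, and between 66.8 and 110 CPM in the other large classes of both libraries. Gpi1, glucose phosphate isomerase, was at 119 CPM in WT astroglia and 68.6 in GABAergic neurons. Pfkl, the liver-type phosphofructokinase, was at 69.5 and 38.1 CPM. All 3 were highest in astroglia in both libraries. Aldoc, the brain aldolase, which is not among the 31 genes, was at 468 CPM in WT astroglia and 448 in cKO astroglia and at 3.24 and 3.21 CPM in glutamatergic neurons. The glucose transporters were scarce in neural cells: Slc2a1 (GLUT1) reached 20.3 CPM in WT astroglia and 3.83 CPM in GABAergic neurons, and Slc2a3 (GLUT3, the neuronal transporter) 7.61 and 11.5 CPM. At the other end of the pathway, the lactate transporter Slc16a1 (MCT1) was at 15.9 CPM in WT astroglia and 4.63 in GABAergic neurons. Pdk1, a kinase that shuts off pyruvate dehydrogenase, was at 12.1 and 6.79 CPM.

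Within each set of isozymes the shares differed between progenitors and neurons. Hk2, the inducible hexokinase, made up 41.6% (38.2 to 45.1) of hexokinase 1 and 2 UMIs in WT astroglia 67.8% in cycling progenitors and 49.6% in intermediate progenitors, but 10.1% in glutamatergic neurons and 2.15% (1.30 to 3.34) in GABAergic neurons. In CPM, Hk2 was at 21.5 in WT astroglia and 0.956 in GABAergic neurons, while Hk1, the hexokinase of mature brain, was at 30.2 and 43.4. The neuronal classes held little Hk2 and kept Hk1, and cycling progenitors had the lowest Hk1 level, 10.4 CPM in WT and 10.9 in cKO.

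Lactate dehydrogenase also differed by class, but the intermediate progenitors lay below the glutamatergic neurons. Ldha, the muscle-type subunit, was at 445 CPM in WT astroglia, 317 in cycling progenitors, 162 in intermediate progenitors, 203 in glutamatergic neurons and 64.7 in GABAergic neurons. Ldhb, the heart-type subunit, was at 288, 189, 352, 297 and 304 CPM. The Ldha share of the pair was therefore 60.7% (59.8 to 61.6) in WT astroglia, 62.7% in cycling progenitors, 31.5% in intermediate progenitors, 40.6% (39.7 to 41.6) in glutamatergic neurons and 17.5% (16.7 to 18.4) in GABAergic neurons. In the cKO library the share was 56.3% in astroglia, 58.2% in cycling progenitors, 30.9% in intermediate progenitors, 38.7% in glutamatergic neurons and 17.8% in GABAergic neurons. The difference between libraries in astroglia, -4.42 percentage points, was -1.27 without cluster 21, the astroglia led by Fgf17. Slc2a3 made up 27.3% of both glucose transporters in WT astroglia, 50.8% in glutamatergic neurons and 75.0% (69.7 to 79.8) in GABAergic neurons. Eno2, the neuronal enolase, made up 1.33% of the enolase UMIs in WT astroglia 12.3% (10.9 to 13.9) in glutamatergic neurons and 6.92% in GABAergic neurons, so Eno1 was the larger in all of them. Of the 3 phosphofructokinase genes, Pfkl held 69.1% in WT astroglia and 40.3% in glutamatergic neurons, where Pfkm (muscle type) held 45.0% and Pfkp (platelet type) 14.7%. In GABAergic neurons Pfkl held 46.4% and Pfkm 39.3%.

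**Figure D2:**
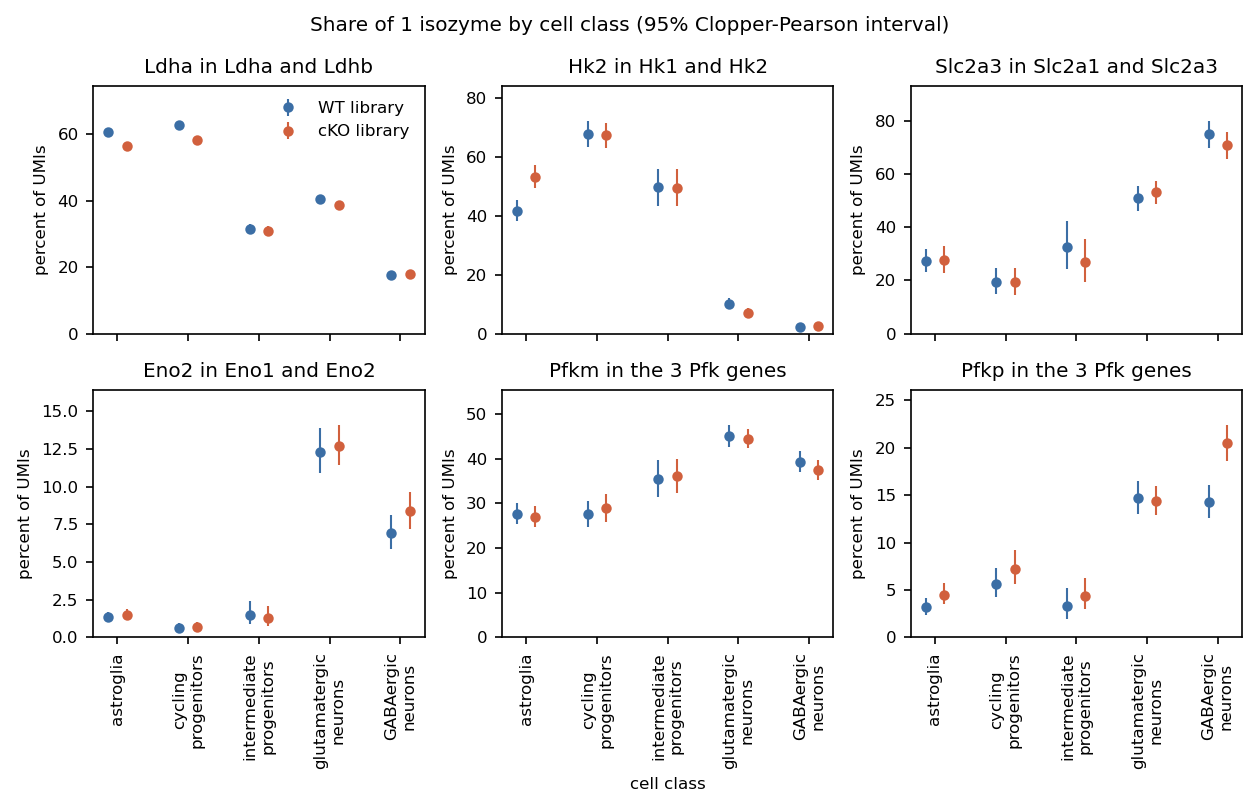
Share of the named isozyme among the UMIs of its set, in percent, by cell class, in the WT (blue) and cKO (red) libraries, with 95% Clopper-Pearson intervals. From astroglia and cycling progenitors to neurons the shares of Ldha and Hk2 go down and those of Slc2a3, Eno2, Pfkm and Pfkp go up, while intermediate progenitors have a lower Ldha share (31.5% in WT) than glutamatergic neurons (40.6%); most differences between the libraries are small beside those between classes.

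Across clusters some enzymes of the pathway were high together. Over the 26 clusters with at least 50 WT cells, log2(CPM + 5) of Hk2 and Pgk1 had a Pearson r of 0.89 and Tpi1 and Ldha an r of 0.90, and over 27 clusters of the cKO library these were 0.89 and 0.85. Gapdh and Pgk1 reached 0.88 in both. Hk1 and Hk2 ran opposite to each other, with r of -0.81 in WT and -0.85 in cKO. The clusters of a library share its processing, free RNA and depth, and clusters of 1 class are alike, so these values only describe the pattern. Of the 465 pairs of members, the most alike to Txnip in both libraries was Pgk1 (r of 0.79 and 0.81).

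Within classes, levels also followed the state of the cells. Cluster 21, the astroglia led by Fgf17 and Fgf8 (285 WT and 93 cKO cells), had the highest levels of all clusters with at least 50 cells of a library for Ldha (616 CPM in WT, 496 in cKO), Tpi1 (375 and 364), Pfkl (86.8 and 99.3), Vegfa (127 and 82.3) and P4ha1 (110 and 140). Septal astroglia of cluster 15 had the highest Ldhb in both libraries, at 598 and 551 CPM. In intermediate progenitors, cluster 9 (Neurog2, Neurod4) held 264 CPM of Ldha in WT and 306 in cKO, and cluster 3 (Eomes, Slc17a6) 71.5 and 60.5 CPM. The lower Ldha in the cluster with the later markers was thus seen in both libraries. Among glutamatergic neurons, Ldha was at 97.0 CPM in cluster 2 and 258 CPM in cluster 5 of the WT library, and at 53.6 CPM in cluster 2 and 266 CPM in cluster 4 of the cKO library.

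The hypoxia response genes did not share 1 pattern. Egln1 was nearly flat, from 74.3 CPM in WT intermediate progenitors to 110 in cycling progenitors, whereas Egln3 was at 29.1 CPM in WT astroglia, 19.3 in cycling progenitors and 1.11 in GABAergic neurons. Of the large classes, Vegfa, the vascular growth factor, was highest in astroglia (59.1 CPM in WT), as was P4ha1, a collagen prolyl hydroxylase (75.1 CPM in WT). The few Cajal-Retzius cells (74 in WT and 62 in cKO) held more Vegfa, at 83.3 CPM (66.4 to 103) in WT and 66.8 (49.2 to 88.5) in cKO. Ddit4, an inhibitor of mTORC1, was highest in intermediate progenitors, at 117 CPM in WT and 91.9 in cKO. It was lowest in cycling progenitors, at 25.2 and 26.6 CPM, in both libraries. Bnip3, a mitophagy receptor, was highest in glutamatergic neurons (47.6 CPM in WT), and Ankrd37, an ankyrin repeat protein induced by HIF1, in GABAergic neurons (24.2 CPM in WT). Hif1a itself lay between 89.6 and 120 CPM in the 5 large classes of both libraries. It was highest in intermediate progenitors in both, as was Ddit4. Higd1a, a small mitochondrial protein, was between 125 and 207 CPM in the same classes.

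The second question was what differed between genotypes, and for most of the 31 genes the ratios were close to 1. The median log2 ratio over the members with at least 20 UMIs was -0.04 in astroglia, -0.01 in cycling progenitors, 0.02 in intermediate progenitors, 0.01 in glutamatergic neurons and 0.03 in GABAergic neurons, and over all genes that passed the same filter it was -0.03, -0.02, -0.02, -0.01 and 0.00. The summed enzymes from hexokinase to pyruvate kinase had ratios of 0.994 (0.982 to 1.01) in astroglia, 1.01 in cycling progenitors, intermediate progenitors and glutamatergic neurons, and 1.04 (1.03 to 1.06) in GABAergic neurons. The glutamatergic class is made of different clusters in each library, mainly clusters 5 and 2 in WT and clusters 4, 2, 7 and 17 in cKO, so its ratios compare unlike neurons.

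Past 1.5-fold (on log2 ratios with 5 CPM added), 1 of 30 members was lower in astroglia, 1 of 30 in cycling progenitors and 1 of 29 in intermediate progenitors, and in all 3 this was Txnip. The share of all tested genes lower past that limit was 1.34% in astroglia, 0.501% in cycling progenitors and 0.883% in intermediate progenitors, so a single member is no sign that the set as a whole differed. In glutamatergic neurons 1 of 29 members was lower, beside 1.4% of all genes, and in GABAergic neurons 0 of 30, beside 0.117%. No member was higher past 1.5-fold in any large class, where 0.393% of all genes were in astroglia, 0.202% in cycling progenitors, 0.749% in intermediate progenitors, 1.32% in glutamatergic neurons and 0.437% in GABAergic neurons. Adm had under 20 UMIs in each of the 5 classes and Slc16a3 in intermediate progenitors and glutamatergic neurons, so these were not compared there. Over all tested members the ratios in astroglia ran from 0.250 (0.101 to 0.546) for Slc16a3, with 37 UMIs in WT and 8 in cKO, to 1.48 (1.01 to 2.19) for Pfkp, both under 5 CPM and therefore inside 1.5-fold once 5 CPM are added. Leaving out Txnip, the members at 20 CPM or more had ratios from 0.697 (Vegfa) to 1.26 (Hk2) in astroglia and from 0.825 (P4ha1) to 1.15 (Egln3) in cycling progenitors. They ranged from 0.783 (Ddit4) to 1.27 (Bnip3) in intermediate progenitors, from 0.673 (Ddit4) to 1.09 (Eno1) in glutamatergic neurons and from 0.816 (P4ha1) to 1.13 (Ankrd37) in GABAergic neurons.

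**Figure D3:**
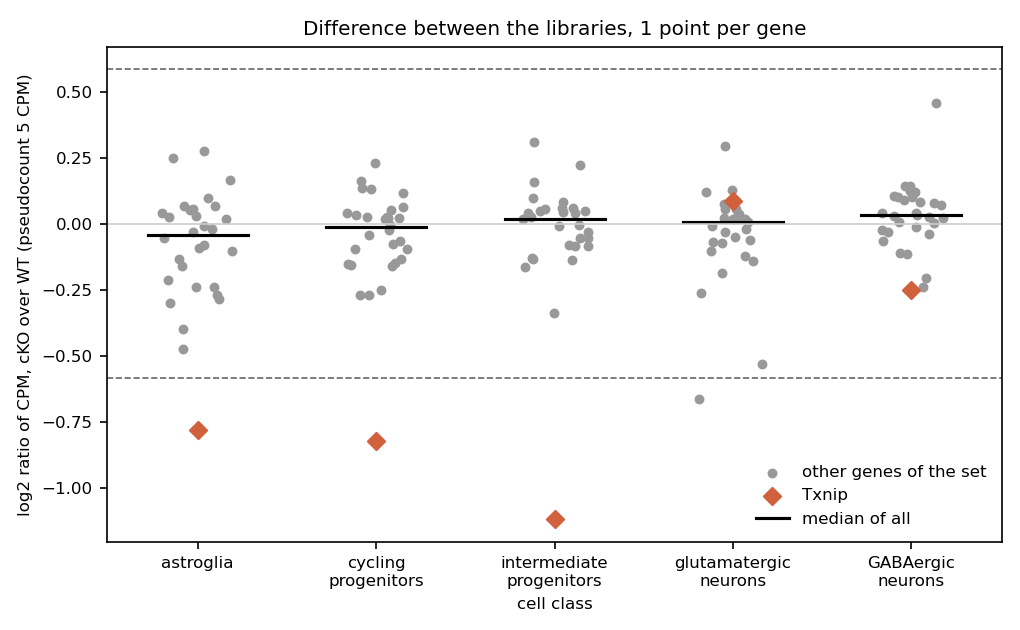
Log2 ratio of CPM, cKO over WT with 5 CPM added, for each member with at least 20 UMIs, by cell class. Grey points are members, the black bar their median, the red diamond Txnip (ENSMUSG00000038393) and the dashed lines 1.5-fold. Txnip lies below the lower line in astroglia, cycling progenitors and intermediate progenitors and between the lines in both neuron classes. In GABAergic neurons its ratio before 5 CPM were added, 0.691, was the lowest of the 30 tested members. The lone grey point below the line is Slc16a1 in glutamatergic neurons.

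Txnip (ENSMUSG00000038393, chr3:96557957-96561883 on the plus strand of mm10, protein coding) was at 42.7 CPM in WT astroglia and 22.7 CPM in cKO astroglia, a ratio of 0.533 (0.464 to 0.612). In cycling progenitors it was at 34.7 and 17.5 CPM, a ratio of 0.503 (0.431 to 0.586). In intermediate progenitors it was at 52.0 and 21.2 CPM, a ratio of 0.408 (0.340 to 0.489). These are the 3 large classes in which Txnip was well expressed, and in each the intervals of the 2 libraries did not overlap. Neurons of both kinds held little of it, 5.80 and 6.46 CPM in glutamatergic neurons and 5.28 and 3.65 CPM in GABAergic neurons. The ratios there were 1.11 (0.874 to 1.42) and 0.691 (0.507 to 0.938), the latter in a class that lies mostly outside the targeted lineage.

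The lower level was spread over the clusters of these classes. Of 24 clusters with at least 50 cells in each library, 19 had at least 20 Txnip UMIs, and Txnip was lower in the cKO library in 18 of them, in 10 past 1.5-fold. The exception was cluster 2 of the glutamatergic neurons, with 7.53 CPM in WT and 9.09 in cKO. All clusters are parts of the same 2 libraries, so they are not replicates and a shift of a whole library would reach all of them. The share of all genes past 1.5-fold is not given for single clusters. Cluster 9, the Neurog2 intermediate progenitors, had the highest WT level of the 24 and a ratio of 0.370 (0.292 to 0.466), from 77.6 to 28.7 CPM. Cluster 10, astroglia with Foxj1 and Aldh1l1, had a ratio of 0.344 (0.207 to 0.546), and cluster 13, with Hopx and Tnc, 0.398 (0.285 to 0.550). In the septal astroglia of cluster 15 it was 0.745 (0.534 to 1.04), an interval that holds 1. That the septal ratio differs from the others was not tested.

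**Figure D4:**
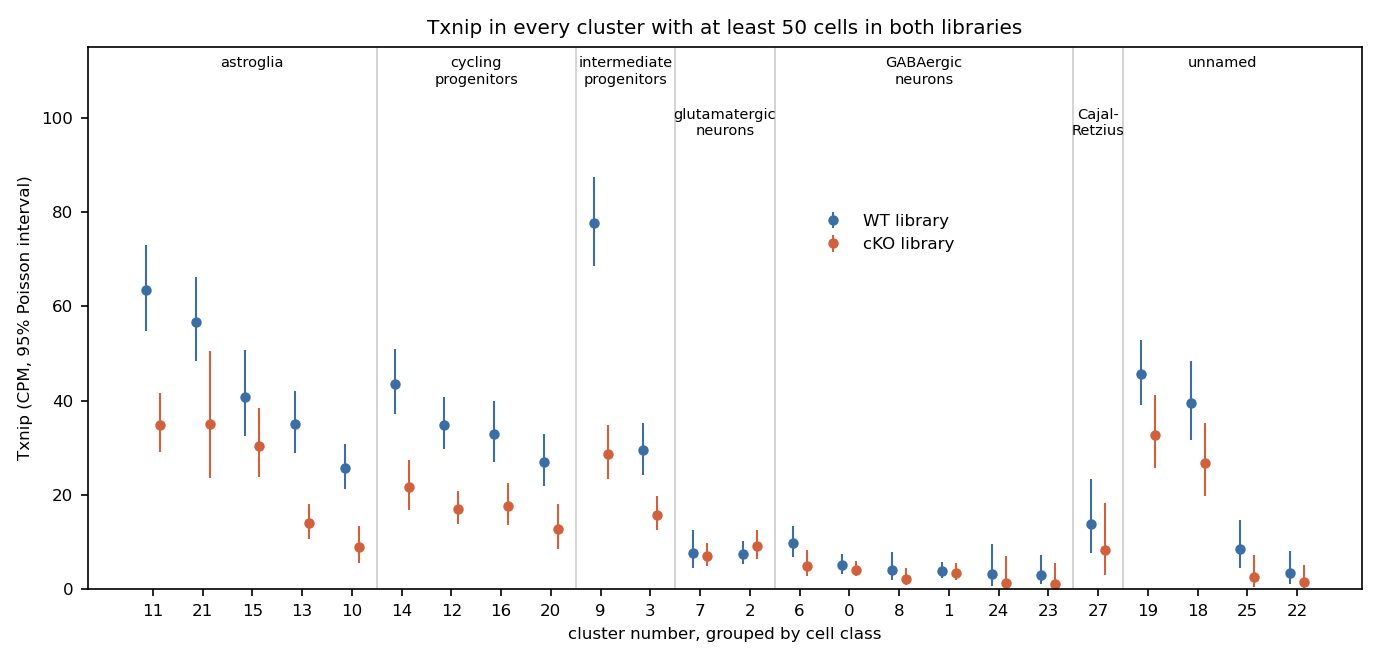
Txnip in CPM in each of the 24 clusters with at least 50 cells in both libraries, WT in blue and cKO in red, with 95% Poisson intervals, grouped by cell class. The cKO points lie below the WT points in every astroglial and progenitor cluster, from 77.6 against 28.7 CPM in cluster 9 to 40.8 against 30.4 CPM in cluster 15, and both are low in neurons.

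Outside these classes Txnip was high in the vascular cluster, at 117 CPM in WT and 107 in cKO with a ratio of 0.911 (0.717 to 1.16), and in microglia, at 112 and 129 CPM with a ratio of 1.14 (0.799 to 1.64). The ependymal and choroid plexus cells held 31.5 and 45.7 CPM. Its near relative Arrdc4, another arrestin family gene that responds to glucose, was at 6.06 and 6.49 CPM in astroglia, with a ratio of 1.07 (0.791 to 1.45). In intermediate progenitors it was at 10.3 and 8.21 CPM. Its ratio was 1.25 (0.874 to 1.81) in cycling progenitors, 0.836 (0.729 to 0.959) in glutamatergic neurons and 1.45 (1.17 to 1.81) in GABAergic neurons. Of its regulators, Mlx had ratios from 0.874 in intermediate progenitors to 1.09 in GABAergic neurons, and Mlxip from 0.920 to 1.12 in the 5 large classes. Mlxipl was near the limit of detection, at 2.71 and 1.94 CPM in astroglia. Of the 9 regulators and relatives of Txnip, 9 were tested in astroglia and cycling progenitors and 8 in the other 3 classes, and none passed 1.5-fold. Mlxipl in intermediate progenitors, with 10 UMIs in WT and 1 in cKO, was among those under 20 UMIs.

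Immediate early genes also differed between the libraries, not in the same way in every class. The 15 immediate early genes that dissociation is known to induce were all lower in cKO astroglia, with a median log2 ratio of -0.35 and 4 past 1.5-fold, among them Egr1 (341 to 201 CPM), Ier3 (18.5 to 7.24 CPM) and Egr2 (6.64 to 2.31 CPM). Their summed level was 3167 CPM in WT astroglia and 2478 in cKO astroglia, 2272 and 2053 CPM in cycling progenitors, and 1951 and 1690 CPM in intermediate progenitors. In glutamatergic neurons the summed level was 1832 and 1897 CPM, and in GABAergic neurons 2181 and 2024 CPM. In the few microglia and macrophages (45 WT and 47 cKO cells) it was 19137 and 15257 CPM. Of the immediate early genes tested, 5 were higher and 9 lower in cycling progenitors, and 3 and 7 in intermediate progenitors. In glutamatergic neurons 9 were higher and 5 lower, and in GABAergic neurons 5 and 9. Lower past 1.5-fold were 4 of 15 in astroglia, beside 1.34% of all genes, and 3 of 14 in cycling progenitors, beside 0.501%. The same held for 3 of 10 in intermediate progenitors, beside 0.883%. In glutamatergic neurons 0 of 14 were past 1.5-fold, and in GABAergic neurons 0 of 14. Median UMIs per cell were lower in the cKO library in all 5 classes, for example 9265 and 8064 in astroglia, and with every cell thinned to 4000 UMIs the log2 ratio of Txnip was -0.90 in astroglia and -1.29 in intermediate progenitors. Without thinning these were -0.78 and -1.12. The part of the immediate early response, of dissection and of the embryos themselves in the Txnip difference was not tested.

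Apart from Txnip, 1 member was past 1.5-fold in a large class, and several were in single clusters. The share of all genes past 1.5-fold is not given for single clusters, and the cluster values were picked after they were seen. Slc16a1, the monocarboxylate transporter MCT1, was at 16.2 CPM in WT glutamatergic neurons and 8.42 in cKO, a ratio of 0.519 (0.433 to 0.619). In cluster 2, which holds glutamatergic neurons of both libraries, it was at 22.4 and 9.32 CPM (0.416, 0.282 to 0.602). In cluster 7, the other shared glutamatergic cluster, it was at 10.6 and 10.1 CPM (0.957, 0.567 to 1.66). Ddit4 was lower in both shared glutamatergic clusters, at 91.3 and 59.5 CPM in cluster 2 and 116 and 74.9 CPM in cluster 7, ratios of 0.652 and 0.643. In the class as a whole it was at 79.1 and 53.2 CPM (0.673, 0.625 to 0.724), just inside 1.5-fold. It was also lower in the astroglia of cluster 21, at 42.0 and 23.0 CPM (0.548, 0.319 to 0.894). Hk2 was higher in cluster 14 of the cycling progenitors, with 48 and 74 UMIs (1.81, 1.24 to 2.67), against a ratio of 1.02 in that class. Vegfa was lower in cluster 8 of the GABAergic neurons, at 25.3 and 14.7 CPM (0.579, 0.385 to 0.868), and Slc2a3 in cluster 25, an unnamed one, at 27.0 and 14.8 CPM (0.549, 0.297 to 0.978). Ldha and Bnip3 differed in this way in clusters 2, 9 and 23, in both directions. Pfkp was higher past 1.5-fold in 3 clusters and lower in 1, Gpi1 and Egln3 were higher in 1 each and Pdk1 lower in 1.

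Vegfa was at 59.1 CPM in WT astroglia and 41.2 CPM in cKO astroglia, a ratio of 0.697 (0.626 to 0.775), also inside 1.5-fold. It was highest in cluster 21, which made up 285 of 1572 WT and 93 of 1517 cKO astroglia. Without that cluster Vegfa was at 43.9 and 38.5 CPM, a ratio of 0.877 (0.775 to 0.993). Within cluster 21 it was at 127 and 82.3 CPM, a ratio of 0.650 (0.494 to 0.844), so leaving the cluster out takes away both its share and its own lower level. In the other astroglial clusters the ratios ran from 0.743 in cluster 13 to 1.24 in cluster 15. Txnip without cluster 21 had a ratio of 0.555 (0.478 to 0.645). The hexokinase balance of astroglia also depended on the clusters: Hk2 made up 41.6% in WT and 53.2% in cKO, but with clusters weighted equally the difference was 3.66 percentage points in place of 11.6. In GABAergic neurons Pfkp was at 11.7 and 18.0 CPM (1.53, 1.30 to 1.81). It was higher in cluster 0, with a ratio of 1.48 (1.09 to 2.03), and in cluster 1, with 1.54 (1.06 to 2.24), while in cluster 8 the ratio was 0.767 (0.465 to 1.27) and in cluster 24 0.386 (0.125 to 1.01). Cluster 26, with 22 WT and 152 cKO cells, had the highest Pfkp of all clusters in cKO, 56.0 CPM. With clusters weighted equally the difference of the Pfkp share was 1.36 percentage points in place of 6.16.

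The remaining genes of the pathway were taken as fixed lists, and few were past 1.5-fold. In the large classes other than intermediate progenitors, 26 or 27 of 32 other genes of glycolysis and pyruvate use were tested and 0 passed 1.5-fold. In intermediate progenitors 1 of 23 tested was lower past 1.5-fold, beside 0.883% of all genes. It was Tigar, a fructose bisphosphatase that is a p53 target, at 20.4 CPM in WT and 11.8 in cKO, a ratio of 0.581 (0.447 to 0.752). Of 11 genes of the HIF machinery, 9 or 10 were tested in each of the 5 classes and 0 were past 1.5-fold. Of 31 other HIF targets, 1 of 28 tested was lower past it in astroglia, Rora (17.4 to 9.32 CPM), beside 1.34% of all genes. In glutamatergic neurons 1 of 25 tested was lower, Ak4 (4.73 to 1.20 CPM), and 1 higher, Stc1 (3.96 to 9.10 CPM). There 1.4% of all genes were lower and 1.32% higher. In the other 3 classes 0 of 23 to 27 tested were past it. Of 7 pentose phosphate genes 0 were past it in the 5 classes.

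Some members that were scarce in neural cells were high in 2 small populations, where few cells were caught. Cluster 29, with 56 WT and 35 cKO cells, carried markers of both endothelial and mural cells and is called the vascular cluster here. Slc2a1, the glucose transporter of the blood-brain barrier, was at 381 CPM there in WT and 612 in cKO, and at most 20.3 CPM in the large classes. Adm, the vascular peptide adrenomedullin, was at 64.4 and 108 CPM, against at most 1.10 CPM in the large classes, and Ankrd37 at 111 and 205 CPM. Epas1, the HIF2 alpha subunit of endothelium, was at 175 and 194 CPM and below 1 CPM in the large classes. The ratios were 1.61 (1.44 to 1.80) for Slc2a1, 1.67 (1.27 to 2.21) for Adm and 1.85 (1.51 to 2.27) for Ankrd37, whereas Vegfa was lower, at 33.3 and 10.2 CPM. The make-up of the cluster also differed. The endothelial marker Cldn5 had a ratio of 1.40, Pecam1 1.03 and the pericyte marker Rgs5 1.15, while the 6 haemoglobin and other red cell genes summed to 35009 CPM in WT and 58946 in cKO and the 6 markers of meningeal fibroblasts to 1481 and 511 CPM. Their part in the ratios was not tested.

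Microglia and macrophages (45 WT and 47 cKO cells) were the only class with much Slc16a3, the lactate exporter MCT4, at 60.5 CPM (42.2 to 84.2) in WT and 45.5 (28.9 to 68.3) in cKO, against at most 9.39 CPM elsewhere. They also had the highest Hk2, at 105 CPM in WT and 73.2 in cKO. The intervals of the 2 libraries overlapped for both genes. In ependymal or choroid plexus cells (35 WT and 24 cKO cells) Ldha was at 384 CPM in WT and 166 in cKO, a ratio of 0.432 (0.340 to 0.544), and Ldhb at 305 and 440 CPM. The choroid plexus marker Ttr was at 231632 CPM in WT and 333894 in cKO and the ependymal marker Foxj1 at 269 and 129 CPM, so the mix of these cells differed between the libraries, and its part was not tested.

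**Figure D5:**
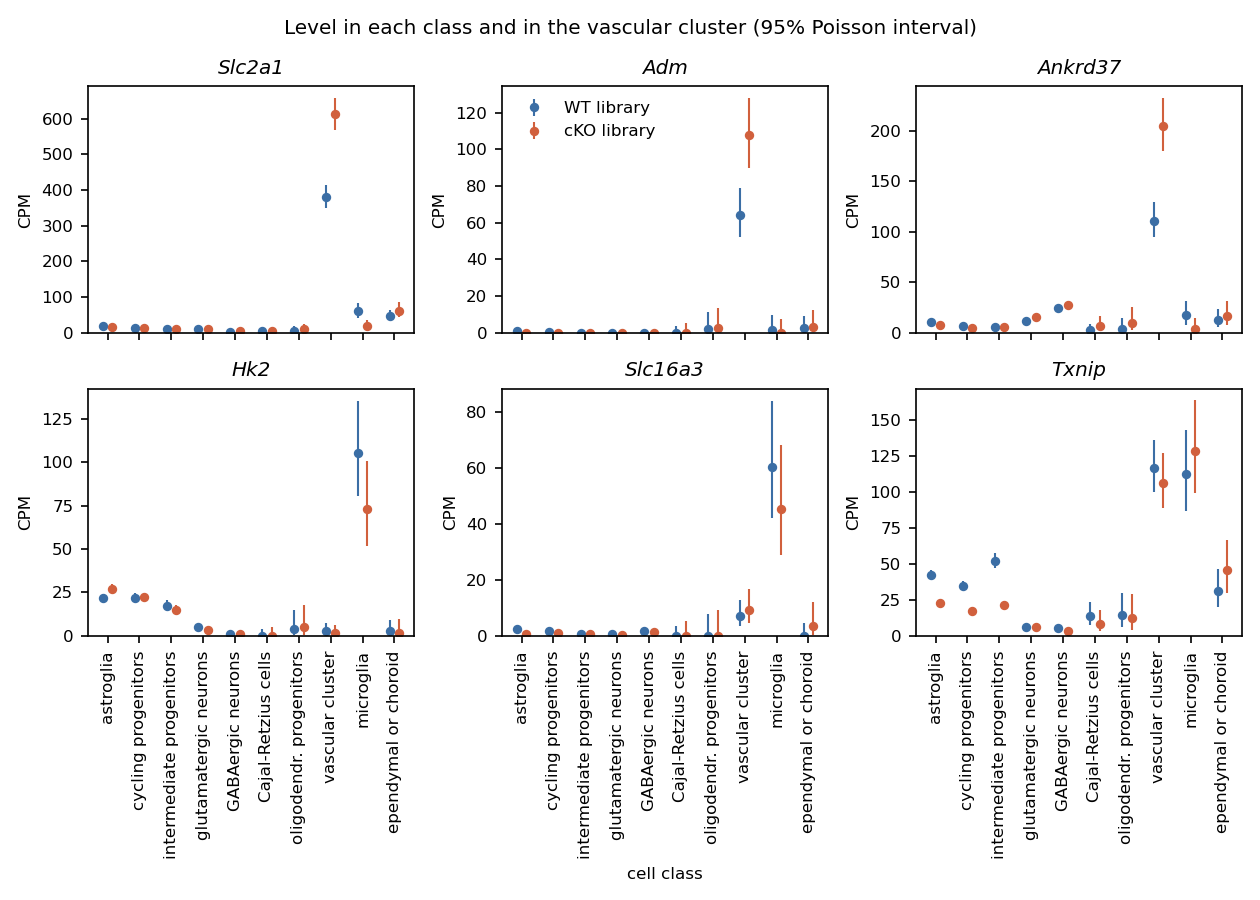
CPM of 6 members in the 5 large classes, 4 small classes and the vascular cluster, WT in blue and cKO in red, with 95% Poisson intervals. Slc2a1, Adm and Ankrd37 stand out in the vascular cluster (381, 64.4 and 111 CPM in WT), Hk2 and Slc16a3 in microglia (105 and 60.5 CPM in WT), and Txnip in both.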

How the data were processed

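The data were deposited by the authors as unfiltered count matrices: whole-number UMI counts per gene and barcode, and per the file headers their software was Cell Ranger, version 7.1.0. Version 2.1.1 and the build mm10 stand in the submitters' processing notes and a 3' v1 kit in the labels; this disagreement was not resolved. The members and gene lists were chosen with earlier results of these data known.

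Here, barcodes past a limit set at the 99th percentile of the 5000 deepest barcodes divided by 10 (3348 UMIs in WT, 3341 in cKO) were kept if they held 500 genes or more and no more than 10% of their UMIs were mitochondrial, and 339 WT and 566 cKO doublets (3.78% and 5.31%) were removed. Cells were clustered with scanpy 1.11.5 and leidenalg 0.10.2 (2000 variable genes, 30 components, 15 neighbours, resolution 1.0). The 31 genes, the pathway lists, Tcf4 and sex, mitochondrial, ribosomal and haemoglobin genes stayed out. Class differences are therefore descriptions of cells grouped by other genes. Classes were named from marker lists, and 847 WT and 697 cKO cells stayed unnamed. Counts were summed per class and library. Log2 ratios had 5 CPM added and needed 20 UMIs over both libraries. Intervals used scipy 1.17.1. The ratio code was tested on simulated data. Free RNA, from droplets of 10 to 100 UMIs, was put at 2.25% of UMIs in WT and 1.19% in cKO in selected neurons. These were neurons with no more than 0.1% haemoglobin UMIs. Haemoglobin counts also gave the estimate, so it may be low and does not cover all neurons.

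Members with at least 50 UMIs, 20 CPM in a library and a value past 1.5-fold in a class with at least 100 cells in each library were to be given in full, which only Txnip met. Slc16a1, Ddit4, Vegfa, Hk2, Pfkp and the values by cluster and small class were picked after their values were seen. The medians, the counts past 1.5-fold and Txnip were recomputed under 13 other settings, and the isozyme shares under 8 of them. A repeat of astroglia without cluster 21 was added after seeing the data.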

Additional observations from a re-analysis of the deposited data

Results flagged for a closer look

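Some genes went past 1.5-fold in opposite directions in 2 clusters. The share of all genes past that limit is not given for single clusters. Ldha had a ratio of 1.83 in cluster 23, GABAergic neurons with Tac1, and of 0.552 in cluster 2, glutamatergic neurons. Bnip3 had a ratio of 1.72 in cluster 9, the Neurog2 intermediate progenitors, and of 0.625 in cluster 2. All 4 intervals left out 1, but they cover counting error only and the ratios were picked for their size. Whether the ratios of a gene differ between its 2 clusters was not tested, since each genotype is 1 library.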

How the results depend on the processing

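The log2 ratio of Txnip stayed past 1.5-fold lower in every alternative run, between -0.90 and -0.72 in astroglia, between -0.95 and -0.80 in cycling progenitors and between -1.29 and -0.999 in intermediate progenitors. The median log2 ratio of the members moved beyond the counting spread only in glutamatergic neurons with shared clusters weighted equally, to -0.14.

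The number of members past 1.5-fold became 2 in intermediate progenitors with doublets kept or resolution 0.5. It became 2 in glutamatergic neurons with the UMI minimum doubled, with resolution 0.5 or with cells thinned, and 2 in astroglia with 1 CPM added. In astroglia the tested member with the lowest ratio, Slc16a3 at 0.250, was inside 1.5-fold with 5 CPM added. The share of all genes past 1.5-fold under these settings is not given, and the causes were not tested.

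Isozyme shares, cKO minus WT in percentage points, moved more, with the cause not tested. With the UMI minimum doubled, the Ldha share was 3.66 in intermediate progenitors, 3.08 in glutamatergic neurons (reversed from -1.89) and 1.77 in GABAergic neurons. With doublets kept, Ldha was 3.02 in intermediate progenitors and -5.24 in glutamatergic neurons, Pfkl 4.95 in intermediate progenitors and Hk2 -0.61 in glutamatergic neurons. At resolution 0.5, Ldha was 3.55, Pfkl 3.93 and Pfkm -5.10 in intermediate progenitors, and Eno2 -2.24 and Hk2 0.33 (reversed from -3.10) in glutamatergic neurons. At resolution 1.5, Ldha was -1.22 in cycling progenitors, 1.76 in intermediate progenitors and -7.53 in glutamatergic neurons. With cells thinned, Ldha was -2.69 in astroglia, Hk2 -7.25 in cycling progenitors, and Pfkl -0.23 and Pfkm -6.53 in GABAergic neurons. With shared clusters weighted equally, Ldha was -2.36 and Hk2 3.66 in astroglia, Ldha -6.22, Eno2 2.91 and Slc2a3 8.39 in glutamatergic neurons, and Eno2 -1.29 and Pfkp 1.36 in GABAergic neurons. Without cluster 21, Ldha was -1.27 in astroglia.

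No paired analysis was possible because each genotype has 1 library, and there was no replicate to leave out. Differences between the libraries thus have no replicate check, a class level cannot tell fewer expressing cells from less RNA per cell, and members under 20 UMIs were not compared.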
